A study of Mus musculus with 9 samples.

Results

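The genes described here are 9 genes that mark naive T cells and let them circulate through lymph nodes: Ccr7, S1pr1, Klf2, Il7r, Tcf7, Lef1, Foxo1, Satb1 and Actn1. They were taken by name from a table of 55536 mouse genes, and all 9 were among the 14684 genes that passed a filter on low counts and were tested. Splenic CD4+ T cells of wild-type male mice aged 6 to 12 weeks were activated in culture by beads coated with anti-CD3 and anti-CD28, which trigger the antigen receptor and CD28, and by 5 ng/mL murine IL-2. For 18 h the cells received EKO-BMDM-exo, exosomes from ApoE-deficient mice (EKO_exo), WT-BMDM-exo, exosomes from wild-type mice (WT_exo), or PBS, with 3 libraries per group. Exosomes are small secreted vesicles, BMDM usually stands for bone marrow-derived macrophages, and the dose was 2e+09 particles per mL. The T cells of all 3 groups were wild type and all were stimulated, so no group shows these genes in resting cells. The replicates are called biological, but no label ties them to separate mice, and p-values therefore reflect only the variation among these samples.

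A naive T cell enters a lymph node with the help of the chemokine receptor CCR7, and leaves it along a gradient of sphingosine 1-phosphate sensed by S1PR1. FOXO1 is known to maintain Klf2, Il7r and Ccr7 in quiescent T cells, and KLF2 in turn activates S1pr1. TCF1 (the product of Tcf7) and LEF1 are related factors of naive and memory T cells. Stimulation through the T cell receptor is known to lower much of this program over time.

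Libraries held 25792975 to 32971791 counts. The 9 T cell markers were detected in every library, with a summed level of 4165.5 to 4224.2 CPM (counts scaled by library size) in EKO_exo, 3971.5 to 4068.4 CPM in WT_exo and 3975.5 to 4090.1 CPM in PBS. Every EKO_exo sum thus lay above the sums of both other groups. By the test given below, Cd3e, Cd247 and Cd5 were called higher in EKO_exo than in PBS and the other 6 markers were not called. None of the 9 was called for WT_exo over PBS. The EKO_exo libraries each had fewer genes detected (19038 to 19518) than the 6 others (19989 to 20568), and on each of the first 3 principal components another EKO_exo library stood apart: replicate 3 on the first, replicate 1 on the second and replicate 2 on the third. Because of this, results in EKO_exo are also given where leaving a library out changes them, a check not run on Cd3e and Cd247. In bulk RNA such as this, fewer cells of a type and less RNA per cell cannot be told apart.

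The members changed in both directions. In EKO_exo, 5 of the 9 were higher than in PBS (Ccr7, S1pr1, Klf2, Tcf7 and Actn1), Satb1 was lower, and Il7r, Lef1 and Foxo1 did not pass the test. In WT_exo, Ccr7, Klf2 and Actn1 were higher than in PBS, Satb1 was lower, and the other 5 did not pass. Changes were small: log2 fold changes ran between -0.19 and 0.48 for EKO_exo over PBS and between -0.18 and 0.33 for WT_exo over PBS. A gene was called at an adjusted p under 0.05 by the edgeR quasi-likelihood F test, adjusted by Benjamini-Hochberg over all tested genes.

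Over all tested genes, 5.08% were called for EKO_exo over PBS, 2.21% higher and 2.87% lower, against 6 of 9 members. For WT_exo over PBS 4.97% were called, 1.83% higher and 3.14% lower, against 4 of 9 members. The median log2 fold change of the members was 0.14 in the EKO_exo comparison and 0.07 in the WT_exo comparison, beside 0.00 for all tested genes in each. For EKO_exo, 6 members lay above every PBS library and 1 below every PBS library, where 20.5% of all tested genes did not overlap (9.94% above, 10.6% below). For WT_exo, 4 lay above and 1 below, where 22.2% did not overlap (10.6% above, 11.6% below). Both comparisons use the same 3 PBS libraries. The members were chosen with earlier results of these data known. They also had at least 828 counts in every library, while the filter asked for a minimum count of 10. The counts beside the shares of all genes are therefore a description and not a test.

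**Figure D1:**
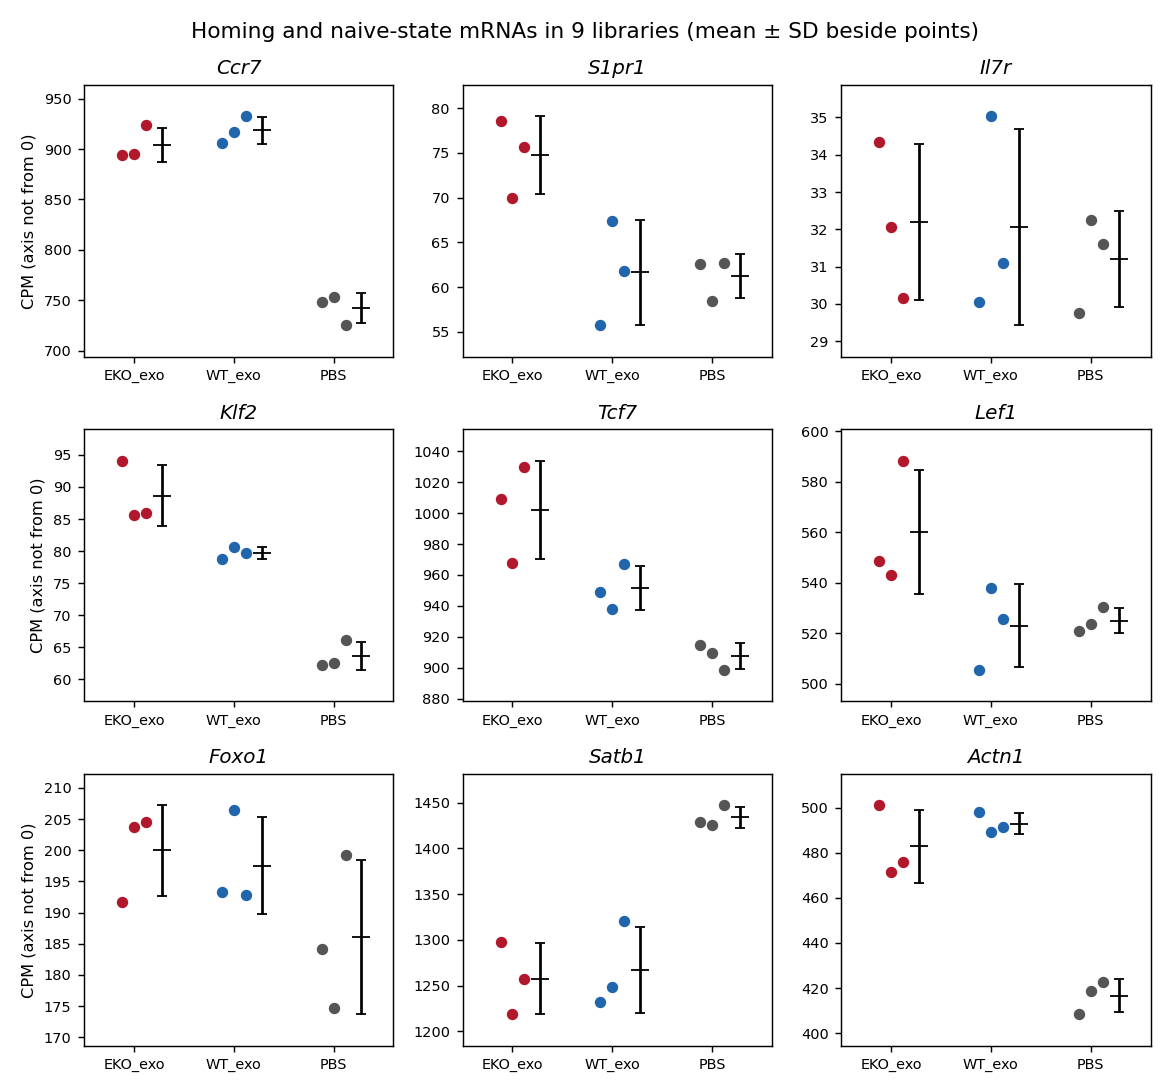
Level of each of the 9 genes in every library (CPM, a separate axis for each gene), with a point per replicate of EKO_exo (red), WT_exo (blue) and PBS (grey) and, beside them, the mean and SD. Axes do not start at 0. The exosome libraries lie above all PBS libraries for Ccr7, Klf2 and Actn1, and below all PBS libraries for Satb1.

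Among the receptors, Ccr7 changed with the least spread. Ccr7 (ENSMUSG00000037944, chromosome 11, 99144196 to 99155077, minus strand, GRCm38) encodes the receptor for the chemokines CCL19 and CCL21, which draw T cells into lymph nodes. Its level was 893.8, 895.0 and 923.7 CPM in EKO_exo, 906.4, 916.7 and 932.5 CPM in WT_exo and 747.9, 753.1 and 725.2 CPM in PBS. Every exosome library was above every PBS library, and the 2 exosome groups overlapped. Ccr7 was 1.22-fold higher in EKO_exo than in PBS, a log2 fold change of 0.29 ± 0.028 (SE) with an edgeR adjusted p of 1.65e-07. In WT_exo it was 1.24-fold higher than in PBS, 0.31 ± 0.028 on the log2 scale with an adjusted p of 4.19e-08. By p-value Ccr7 ranked 7 of the 14684 genes in the EKO_exo comparison and 5 in the WT_exo comparison.

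S1pr1 (ENSMUSG00000045092, chromosome 3, 115710433 to 115715072, minus strand) encodes the receptor that T cells follow out of lymphoid organs. It had 78.6, 70.0 and 75.6 CPM in EKO_exo, 55.7, 67.4 and 61.8 CPM in WT_exo, and 62.6, 58.5 and 62.7 CPM in PBS. The EKO_exo libraries lay above all others, while WT_exo and PBS overlapped. The log2 fold change was 0.29 ± 0.069 for EKO_exo over PBS (adjusted p = 0.0112) and 0.01 ± 0.069 for WT_exo over PBS (adjusted p = 0.977). The EKO_exo call rests on particular libraries: adjusted p was 0.0598 without EKO_exo replicate 1 and 0.0943 without PBS replicate 2. With both EKO_exo replicates 1 and 3 left out, the log2 fold change was 0.19 with an adjusted p of 0.415. 

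S1pr1 is also expressed by B cells, and the summed level of 10 B cell markers was also higher in every EKO_exo library than in all others. The B cell sum was 613.2 to 618.4 CPM in EKO_exo, 514.8 to 579.6 CPM in WT_exo and 526.2 to 568.0 CPM in PBS. Within each group the library with the most S1pr1 was not the one with the largest sum. Such a ranking of 3 libraries cannot tell what lies behind a difference between groups. Of 9 tested B cell markers, Igkc and Ighm, the immunoglobulin kappa and mu constant genes, were called higher in EKO_exo than in PBS, and they made up most of the sum. Ms4a1, encoding the B cell surface protein CD20, averaged 0.524 CPM in EKO_exo, 0.315 CPM in WT_exo and 0.61 CPM in PBS and was not called. The part of B cells in the S1pr1 result was not tested.

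Il7r (ENSMUSG00000003882, chromosome 15, 9505788 to 9530176, minus strand) encodes the alpha chain of the receptor for IL-7, the cytokine that keeps naive T cells alive. Il7r showed 34.3, 32.1 and 30.2 CPM in EKO_exo, 30.0, 35 and 31.1 CPM in WT_exo, and 29.8, 32.3 and 31.6 CPM in PBS. The 3 groups overlapped. The log2 fold change was 0.04 for either exosome group over PBS, with a 95% interval of -0.14 to 0.22 and adjusted p of 0.873 for EKO_exo and 0.91 for WT_exo. A change as large as that of Klf2 in EKO_exo lies outside this interval, and one as small as that of Tcf7 lies inside it.

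The transcription factors split. Klf2 rose in both exosome groups, Tcf7 rose in EKO_exo, Satb1 fell in both, and Lef1 and Foxo1 did not pass the test in either.

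Klf2 (ENSMUSG00000055148, chromosome 8, 72319033 to 72321656, plus strand) encodes a zinc finger factor of quiescent T cells and had the largest fold of the 9 genes in both comparisons with PBS. Its level was 94.1, 85.7 and 86.0 CPM in EKO_exo, 78.8, 80.6 and 79.7 CPM in WT_exo and 62.2, 62.5 and 66.1 CPM in PBS. No library of one group overlapped those of another. Klf2 was 1.39-fold higher in EKO_exo than in PBS, 0.48 ± 0.058 on the log2 scale (edgeR adjusted p = 4.21e-06). In WT_exo it was 25.3% higher, 0.33 ± 0.058 on the log2 scale (adjusted p = 0.000581).

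Tcf7 (ENSMUSG00000000782, chromosome 11, 52252371 to 52283014, minus strand) encodes TCF1. Counts scaled to the library gave 1009.2, 967.6 and 1029.7 CPM in EKO_exo, 949.3, 938.3 and 966.8 CPM in WT_exo, and 915.1, 909.7 and 898.7 CPM in PBS. All EKO_exo libraries lay above all WT_exo libraries, and all of those above PBS. The rise in EKO_exo was 0.14 ± 0.028 on the log2 scale, 1.1-fold, with an adjusted p of 0.00165. Without EKO_exo replicates 1 and 3 it was 0.09 with an adjusted p of 0.259. For WT_exo over PBS the log2 fold change was 0.07 ± 0.028 with an adjusted p of 0.199.

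Lef1 (ENSMUSG00000027985, chromosome 3, 131110471 to 131224356, plus strand), the relative of Tcf7, had 548.6, 543.2 and 588.4 CPM in EKO_exo, 505.5, 537.9 and 525.5 CPM in WT_exo, and 520.9, 523.8 and 530.3 CPM in PBS. Every EKO_exo library was above every library of the other groups, which overlapped each other. The log2 fold change for EKO_exo over PBS was 0.09 ± 0.034 with an edgeR adjusted p of 0.114, and DESeq2 gave 0.10 with an adjusted p of 0.0365. For WT_exo over PBS it was -0.01 ± 0.034 (edgeR adjusted p = 0.971). A non-coding antisense gene, Gm43352, covers 13.7% of the exonic bases of Lef1 and averaged 5.1 CPM. Overlapping genes of Foxo1, Satb1 and Actn1 averaged 0.258 to 6.32 CPM. The strand setting of the counting is not given in the sources used here.

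Foxo1 (ENSMUSG00000044167, chromosome 3, 52268336 to 52353221, plus strand) encodes the forkhead factor upstream of several other members. Its level was 191.6, 203.7 and 204.6 CPM in EKO_exo, 193.3, 206.5 and 192.9 CPM in WT_exo and 184.1, 174.7 and 199.2 CPM in PBS. The groups overlapped through PBS replicate 3. The log2 fold change was 0.10 ± 0.047 for EKO_exo over PBS (adjusted p = 0.238) and 0.09 ± 0.047 for WT_exo over PBS (adjusted p = 0.388). FOXO1 activity is known to be set largely by phosphorylation and nuclear export, which mRNA counts do not measure.

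Satb1 (ENSMUSG00000023927, chromosome 17, 51736187 to 51833290, minus strand) encodes a chromatin organizer that T cells need for development and for the naive state, and it was the only member called lower. It had 1297.2, 1218.9 and 1256.9 CPM in EKO_exo, 1231.9, 1248.2 and 1320.7 CPM in WT_exo, and 1428.9, 1425.7 and 1447.2 CPM in PBS. All 6 exosome libraries lay below all 3 PBS libraries. The log2 fold change was -0.19 ± 0.028 for EKO_exo over PBS (adjusted p = 9.05e-05) and -0.18 ± 0.028 for WT_exo over PBS (adjusted p = 0.000142). The level fell by 12.3% in EKO_exo and by 11.6% in WT_exo. Both calls held in every fit that left out 1 library.

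Actn1 (ENSMUSG00000015143, chromosome 12, 80167547 to 80260371, minus strand) encodes alpha-actinin-1, which crosslinks actin filaments. It had 501.1, 471.4 and 476.1 CPM in EKO_exo, 498.1, 489.3 and 491.5 CPM in WT_exo, and 408.3, 418.7 and 422.6 CPM in PBS. As with Ccr7, the exosome groups overlapped each other and lay above all PBS libraries. Actn1 was 1.16-fold higher in EKO_exo than in PBS (0.21 ± 0.032 on the log2 scale, adjusted p = 0.000108). In WT_exo it was 1.18-fold higher (0.24 ± 0.032 on the log2 scale, adjusted p = 1.6e-05).

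**Figure D2:**
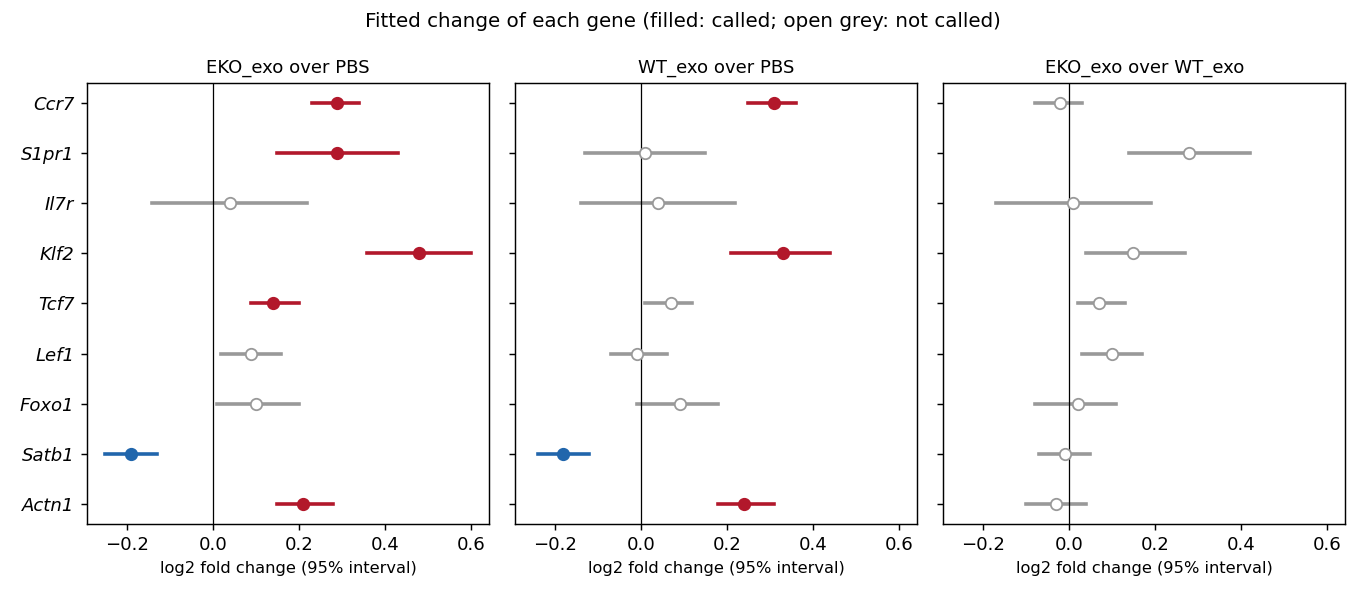
Log2 fold change of each gene with its 95% interval, for EKO_exo over PBS, WT_exo over PBS and EKO_exo over WT_exo, with filled points for genes called at an adjusted p under 0.05. Klf2 has the highest points against PBS (0.48 and 0.33), Satb1 lies below 0, and no member is called between the exosome groups.

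The direct comparison of the exosome groups called no member at the adjusted threshold, where 0.0341% of all tested genes (5) were called by edgeR, 0.0272% higher and 0.00681% lower. At an unadjusted p under 0.05 it named 4 members, S1pr1, Klf2, Tcf7 and Lef1, where 7.08% of all tested genes were under that value. The same 4 lay above every WT_exo library in EKO_exo, where 5.88% of all tested genes did so and 5.97% lay below. S1pr1 had a log2 fold change of 0.28 ± 0.069 for EKO_exo over WT_exo (95% interval 0.14 to 0.42, edgeR adjusted p = 0.243). With no filter on low counts its adjusted p was 0.0275, the 1 member call in this comparison. DESeq2 called no member either, and gave S1pr1 and Il7r no adjusted p.

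Klf2 was 0.15 ± 0.057 higher on the log2 scale in EKO_exo than in WT_exo, with an edgeR adjusted p of 0.583. The matching differences were 0.07 ± 0.028 for Tcf7 (adjusted p = 0.583) and 0.10 ± 0.034 for Lef1 (adjusted p = 0.52). For Ccr7, Satb1 and Actn1, the genes called against PBS whose exosome groups overlapped, the differences were -0.02 (95% interval -0.08 to 0.03), -0.01 (-0.07 to 0.05) and -0.03 (-0.10 to 0.04). The genes that were called for EKO_exo but not for WT_exo against PBS, S1pr1 and Tcf7, are therefore not shown to differ between the exosome groups at the adjusted threshold.

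Between genes, levels were compared as CPM per kilobase of the principal transcript in the GENCODE M21 annotation. Ccr7 stood at 457.1 CPM per kilobase in EKO_exo, 464.4 in WT_exo and 375.2 in PBS. Tcf7 followed at 405.6 in EKO_exo, 385.1 in WT_exo and 367.4 in PBS, and in PBS the ranges of Ccr7 and Tcf7 overlapped. Next came Satb1 with 201.5, 202.9 and 229.7 CPM per kilobase in EKO_exo, WT_exo and PBS. Lef1 (150.8 CPM per kilobase in PBS) and Actn1 (111.6) were next, and Klf2 (34.4), Foxo1 (21.5), S1pr1 (20.1) and Il7r (8.81) were lowest.

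The lowest levels belonged to S1pr1, Foxo1 and Il7r in every group. Foxo1 and S1pr1 overlapped in PBS, and in EKO_exo S1pr1 averaged 24.5 CPM per kilobase beside 23.1 for Foxo1. Il7r, at the bottom of the order, still had at least 828 counts in every library. The order depends on the transcript length used: over all annotated exons Satb1 is 19027 bases long instead of 6243, and the places of Lef1 and Actn1 are exchanged.

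**Figure D3:**
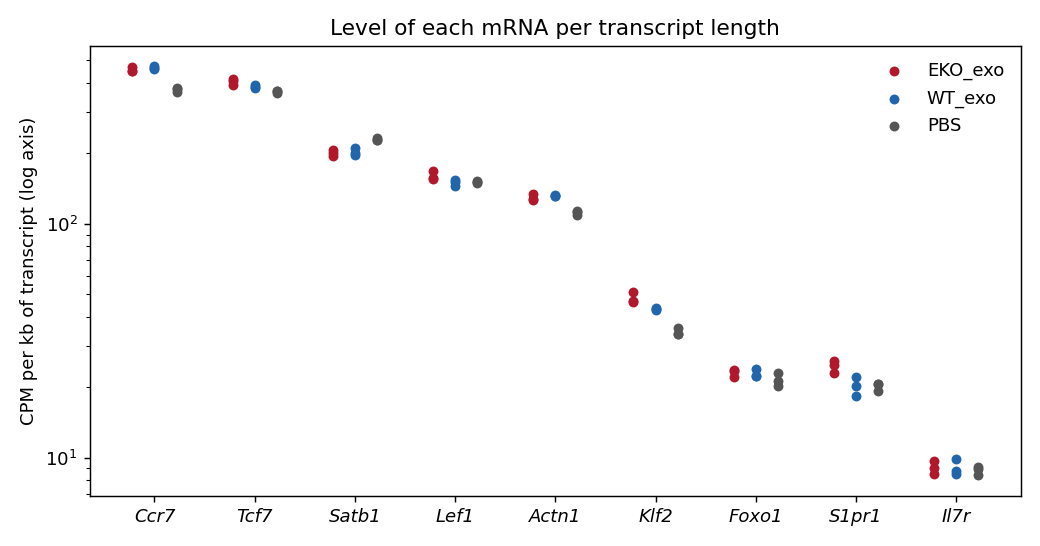
Level of each gene in CPM per kilobase of its principal transcript on a log axis, with 1 point per library of EKO_exo, WT_exo and PBS. Ccr7 and Tcf7 lie at the top and Il7r at the bottom in all groups.

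Promoter sequence was available from RefSeq (GRCm38.p6) for 7 of the 9 genes, in 15 windows of 250 bases before to 50 after a start. Klf2, Actn1 and Foxo1, genes with a single listed start, are shown because they differ in response: the first and second rose in both exosome groups, and Foxo1 passed the test in neither. The stretches are the 120 bases just before the RefSeq or the GENCODE start, whichever lies further upstream, which is the GENCODE start for each of these 3 genes, on the strand of the gene, at chr8:72318913-72319032 (plus strand) for Klf2, chr12:80260372-80260491 (minus strand) for Actn1 and chr3:52268216-52268335 (plus strand) for Foxo1. Capitals mark the letters of a searched motif on either strand.
Klf2: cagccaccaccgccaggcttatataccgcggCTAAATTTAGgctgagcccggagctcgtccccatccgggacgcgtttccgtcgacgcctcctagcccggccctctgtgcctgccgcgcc
Actn1: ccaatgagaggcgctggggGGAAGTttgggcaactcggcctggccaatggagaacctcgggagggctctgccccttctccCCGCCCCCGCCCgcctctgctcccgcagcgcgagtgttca
Foxo1: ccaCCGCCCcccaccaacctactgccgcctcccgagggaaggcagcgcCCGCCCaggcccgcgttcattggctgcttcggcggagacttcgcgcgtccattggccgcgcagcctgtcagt

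The capitals in Klf2 are letters of the MEF2 motif, which 3.69% of all 32851 windows hold, and Klf2 was the only one of the 7 genes with it. In Actn1 they are an ETS motif, GGAAGT (23.8% of all windows), and a pair of GC boxes, GGGCGG (35.7% of all windows), and in Foxo1 a pair of GC boxes. GC boxes, which can overlap one another, were found in 9 of the 15 windows and in 6 of the 7 genes. The ETS letters were in 8 windows, of Actn1, Il7r, Lef1, Satb1 and Tcf7. The FOXO motif GTAAACA (3.65% of all windows) and the KLF motif CCACACCC (3.56%) each occurred in 1 window, of Tcf7. No window held the TCF and LEF motif CTTTGAT (3.73% of all windows) or the CRE motif TGACGTCA (1.79%). A match is a run of letters in this window and says nothing of binding.

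Other genes of the same pathways were counted in 8 lists, which hold 129 further genes, 128 of them tested and 11 in more than 1 list. Of the 128, 22 rose and 3 fell in EKO_exo over PBS, and 14 rose and 5 fell in WT_exo over PBS. Over all tested genes, 2.21% were called higher and 2.87% lower for EKO_exo over PBS. For WT_exo over PBS the shares were 1.83% and 3.14%, and these stand beside each list below. The lists were chosen with earlier results of these data known, so the counts are a description and not a test. The list genes whose calls held in every fit that left out 1 library were Cd69, Gnai2, Bcl11b, Klf3, Zbtb7b, Pik3cd, Mki67, Tfrc and Nr4a1 for EKO_exo. For WT_exo they were Cd69, Bcl11b, Pik3cd, Stat5a, Mki67, Tfrc, Nr4a1, Il2ra, Tbx21 and Irf4, and the other list genes called lost their call without at least 1 library. In the list of trafficking genes, 2 of 26 tested rose in EKO_exo over PBS and none fell, with a median log2 fold change of 0.06 for EKO_exo and 0.04 for WT_exo. These were Cd69, whose product binds S1PR1 and removes it from the cell surface (0.23 ± 0.043 on the log2 scale, edgeR adjusted p = 0.0014), and Gnai2, the inhibitory G protein subunit used by chemokine receptors (0.15 ± 0.031, adjusted p = 0.00385). In WT_exo over PBS 2 rose as well, Cd69 (0.21 ± 0.043, adjusted p = 0.00254) and Sgpl1, the sphingosine 1-phosphate lyase (0.22 ± 0.063, adjusted p = 0.0421). Cd69 had 166.8, 178.1 and 180.4 CPM in EKO_exo, 175.3, 169.6 and 174.8 CPM in WT_exo, and 153.9, 148.3 and 147.0 CPM in PBS, so that it was higher in the same exosome libraries as Ccr7.

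Of 16 other transcription factors of naive T cells, 6 rose in EKO_exo over PBS and none fell, with a median log2 fold change of 0.11. Bcl11b, a factor of T cell identity, rose by 0.27 ± 0.032 (adjusted p = 4.15e-06), Klf3, a repressor related to Klf2, by 0.48 ± 0.075 (adjusted p = 0.000137), and Zbtb7b, the CD4 lineage factor, by 0.23 ± 0.047 (adjusted p = 0.00236). The others were Myb, Foxp1 and Bach2. In WT_exo over PBS 4 rose and none fell: Bcl11b (0.18 ± 0.032, adjusted p = 0.000746), Klf3 (0.34 ± 0.075, adjusted p = 0.00541), Bach2 and Myb, with a median of 0.08. Leaving out 1 library at a time gave 3 to 6 calls for EKO_exo, the 3 without PBS replicate 2. It gave 2 to 4 for WT_exo, the 2 without any of the PBS libraries or WT_exo replicate 1.

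Klf3 stood at 82.2, 67.1 and 74.4 CPM in EKO_exo, 71.5, 62.0 and 68.8 CPM in WT_exo, and 50.2, 51.9 and 58.0 CPM in PBS. Its exosome libraries were all above its PBS libraries, as for Klf2. Foxp1, a factor that maintains quiescence, rose by 0.14 ± 0.034 in EKO_exo (adjusted p = 0.0165), and its log2 fold change for WT_exo over PBS was 0.07 ± 0.034 (adjusted p = 0.299). Foxo3, the relative of Foxo1, gave 0.11 ± 0.044 for EKO_exo over PBS (adjusted p = 0.161) and 0.10 for WT_exo over PBS (adjusted p = 0.274). Id3, an inhibitor of E proteins, gave -0.11 ± 0.146 (adjusted p = 0.796) and -0.19 (adjusted p = 0.607).

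Of 21 surface and signalling genes of naive T cells, 4 rose in EKO_exo over PBS: Ms4a4b (0.39 ± 0.083, adjusted p = 0.00393), Ly6c1, Dgka and Cd5. In WT_exo over PBS only Ms4a6b did (0.15 ± 0.043, adjusted p = 0.0375). None fell, and the median log2 fold change was 0.07 for EKO_exo and 0.04 for WT_exo. The EKO_exo and PBS libraries overlapped for Ms4a4b, Ly6c1 and Dgka. Without PBS replicate 2 none of the 21 was called for EKO_exo, and across the fits that left out 1 library the count for WT_exo was 0 to 5. Among those fits, the EKO_exo call of Cd5 was kept only without PBS replicate 3. That of Dgka was kept only without EKO_exo replicate 2 or PBS replicate 3.

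Of 20 genes of the PI3K and FOXO axis, Pik3cd, the catalytic subunit of PI3K delta, rose in EKO_exo (0.14 ± 0.027, adjusted p = 0.00135) and in WT_exo (0.17 ± 0.027, adjusted p = 0.000105) over PBS. Trib2 was also called higher in EKO_exo (0.25 ± 0.066, adjusted p = 0.0201), with 182.3, 159.7 and 136.4 CPM in EKO_exo against 129.2, 130.8 and 141.1 CPM in PBS, which overlap. Its log2 fold change was 0.15 without EKO_exo replicate 1 (adjusted p = 0.202), and the call was also lost without EKO_exo replicate 2, PBS replicate 1 or PBS replicate 2. Bcl2l11, which encodes the pro-apoptotic protein BIM and is a known FOXO target, fell by 0.22 ± 0.059 in WT_exo (adjusted p = 0.0247). The median of the list was 0.10 for EKO_exo and 0.04 for WT_exo.

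In the list of 11 genes of IL-7 receptor signalling, 4 rose in EKO_exo over PBS and none fell, while Il7r itself did not pass. They were Mcl1, a survival factor (0.16 ± 0.036, adjusted p = 0.0055), Stat5a (0.15 ± 0.036, adjusted p = 0.00975), Il2rg, the receptor chain shared with IL-2 (0.14 ± 0.037, adjusted p = 0.024), and Socs1. In WT_exo over PBS Stat5a rose (0.18 ± 0.036, adjusted p = 0.00228) and the kinase gene Jak3 fell by 0.15 ± 0.041 (adjusted p = 0.0378). The median was 0.08 for EKO_exo and 0.09 for WT_exo, and leaving out 1 library gave 1 to 5 calls for EKO_exo, with 1 without PBS replicate 2 and 2 without PBS replicate 1 or EKO_exo replicate 3.

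Of 17 partners of TCF and LEF factors, the corepressor gene Tle3 was the 1 called by edgeR in EKO_exo over PBS (0.14 ± 0.035, adjusted p = 0.0152). There, 6 had an unadjusted edgeR p under 0.05, and DESeq2 called Tle3, Aes, Bcl9l and Pygo2. In WT_exo over PBS none was called by edgeR or DESeq2, with 1 at an unadjusted edgeR p under 0.05. The median of the list was 0.06 for EKO_exo and 0.02 for WT_exo. Over all tested genes, an unadjusted p under 0.05 was found for 17.1% in EKO_exo over PBS and 15.8% in WT_exo over PBS. Of 17 genes of actinin and integrin adhesion none was called in EKO_exo over PBS by edgeR, with 3 at an unadjusted p under 0.05 and 1 called by DESeq2, and the median was 0.02. In WT_exo over PBS, where the median was -0.01, Flna, which encodes the actin crosslinker filamin A, rose (0.11 ± 0.028, adjusted p = 0.0211). Actn4, the other non-muscle alpha-actinin, gave -0.04 ± 0.032 for EKO_exo over PBS (adjusted p = 0.559) and -0.08 ± 0.032 for WT_exo over PBS (adjusted p = 0.214), so that Actn1 was the alpha-actinin that passed the test.

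Genes of T cell activation moved in both directions. Of 12, 4 rose and 3 fell in EKO_exo over PBS, and 5 rose and 3 fell in WT_exo over PBS, with medians of 0.02 and 0.03. Mki67, the gene of the Ki-67 antigen of cycling cells, fell by 0.50 ± 0.035 in EKO_exo (adjusted p = 6.06e-10) and by 0.57 ± 0.035 in WT_exo (adjusted p = 2.02e-11). Mki67 had 342.5, 341.2 and 356.4 CPM in EKO_exo, 327.9, 342.8 and 317.5 CPM in WT_exo, and 497.3, 485.5 and 483.8 CPM in PBS. Tfrc, the transferrin receptor gene of growing cells, fell by 0.27 ± 0.033 in EKO_exo (adjusted p = 4.25e-06) and by 0.25 ± 0.033 in WT_exo (adjusted p = 1.57e-05). Nr4a1, induced rapidly when the antigen receptor is engaged, rose by 0.27 ± 0.042 in each (adjusted p = 0.000121 in EKO_exo and 0.00013 in WT_exo). Myc, the growth factor-responsive transcription factor gene, rose as well, by 0.14 ± 0.032 in EKO_exo (adjusted p = 0.00891) and by 0.12 ± 0.032 in WT_exo (adjusted p = 0.0228). The part of proliferation in the results for the 9 genes was not tested. Between the exosome groups no gene of the 8 lists was called by edgeR. An unadjusted p under 0.05 was found for 16 of the 128 there, beside 7.08% of all tested genes. DESeq2 called 3 list genes between the exosome groups, Gnai2, Il2rg and Flna, and gave no adjusted p to 42 of the 129.

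**Figure D4:**
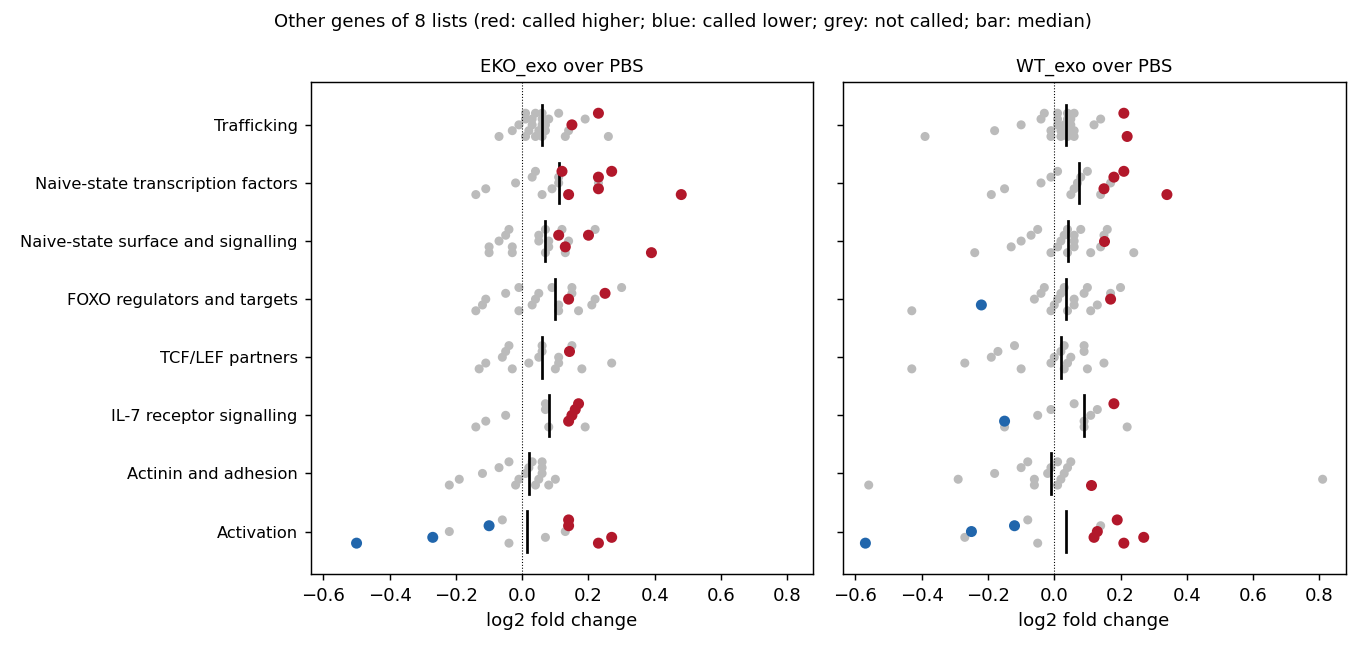
Log2 fold change of every tested gene of the 8 lists, for EKO_exo over PBS and WT_exo over PBS. Red and blue points were called higher and lower at an adjusted p under 0.05, grey points were not called, and bars are medians. Most points lie within 0.3 of 0, and Mki67 is the lowest called gene in both comparisons.

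Among 4622 genes of at least 50 CPM on average, the one whose pattern over the 9 libraries lay nearest to that of Ccr7 was Irf8, at a distance of 0.0673 on centred log2 CPM (Pearson r = 0.99). Irf8 averaged 647.7 ± 15 CPM in EKO_exo, 665.9 ± 6.12 CPM in WT_exo and 538.8 ± 10.6 CPM in PBS (SD, n = 3 each). Nr4a1, Plk3, Slfn2 and Dusp5 followed at 0.118 to 0.134. For Satb1 the nearest were Clpx, Naa40, Anapc5, Emb and Ssrp1, at 0.109 to 0.113. Clpx, the nearest, averaged 74.4 CPM in EKO_exo, 74.1 CPM in WT_exo and 83.9 CPM in PBS, with an adjusted p of 0.0777 for EKO_exo over PBS and 0.073 for WT_exo over PBS. The likenesses rest on the group means that these genes share and are a description of 9 libraries.

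Within EKO_exo the members did not rank the libraries alike. Replicate 1 was highest for S1pr1, Il7r, Klf2, Satb1 and Actn1, and replicate 3 for Ccr7, Tcf7, Lef1 and Foxo1. Replicate 2 was lowest for S1pr1, Klf2, Tcf7, Lef1, Satb1 and Actn1. The coefficient of variation of S1pr1 was 5.84% in EKO_exo, 9.47% in WT_exo and 3.95% in PBS, and that of Ccr7 was 1.87%, 1.43% and 2.00% in the same groups.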

How the data were processed

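Messenger RNA of 9 CD4+ T cell samples was sequenced. Per the labels, a Qiagen RNeasy kit gave the RNA and libraries were prepared by Universal Plus mRNA-Seq. The authors deposited raw counts, whole numbers for each gene, from reads aligned with STAR 2.7.5c to GRCm38 per the submitters' processing notes. How the reads were counted (tool, strand, annotation) is not given in the sources used here. Symbols, coordinates and transcript lengths came from GENCODE M21, of the same build.

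Sample labels gave the groups and replicate numbers. The analysis used edgeR 4.0.16 in R 4.3.3. Its filterByExpr (minimum count 10, minimum total 15) left 14684 genes with at least 99.92% of each library's counts, libraries were scaled by TMM, and 1 model of the 3 groups was fitted to all 9 libraries (6 residual and 21.1 prior degrees of freedom). Groups were compared by the quasi-likelihood F test with Benjamini-Hochberg adjustment over all tested genes, called under 0.05. CPM use TMM-scaled library sizes, and log2 CPM a prior count of 2. The code was tested on simulated data. Alternatives were DESeq2 1.42.0, its size factors in edgeR, no low-count filter, a replicate block, fits of 2 groups only, leaving out each library, and leaving out EKO_exo replicates 1 and 3.

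The members and lists were chosen with earlier results of these data known. The text names all members, the called genes of each list with the 3 smallest p per comparison with PBS, Cd69, Foxp1, Foxo3, Actn4, Id3 and Mki67, and the 5 genes nearest in pattern to Ccr7 and to Satb1. Further called genes are named where a count is small, and these were chosen after their values were seen. A few results under this rule are not reported here.

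Other cell types were checked by summed markers. CD8 T cell markers summed to 32.3 to 35.5 CPM in EKO_exo, 28.9 to 33.2 CPM in WT_exo and 27.0 to 30.5 CPM in PBS. Eomes, which was called higher in EKO_exo, averaged 23.8 CPM in EKO_exo and 17.5 CPM in PBS, while Cd8b1 averaged 9.52 CPM in EKO_exo and 11.1 CPM in PBS and Cd8a 0.465 CPM in EKO_exo and 0.596 CPM in PBS, neither called. Macrophage markers summed to 42.5 to 46.4 CPM in EKO_exo, 40.4 to 49.1 CPM in WT_exo and 36.3 to 43.8 CPM in PBS. Of 5 tested macrophage markers, Csf1r was called higher in EKO_exo than in PBS. It averaged 2.28 CPM in EKO_exo, 1.36 CPM in WT_exo and 0.87 CPM in PBS. The other 4 were not called for EKO_exo over PBS, and none was called for WT_exo over PBS. Regulatory T cell markers summed to 2829.3 to 2978.1 CPM in EKO_exo, 2822.5 to 2903.7 CPM in WT_exo and 3000.4 to 3022.9 CPM in PBS. Most of that sum is Il2ra, which activated T cells also express (1860.7 CPM in EKO_exo, 1830.9 CPM in WT_exo and 1993.5 CPM in PBS). Gpr83 was called higher in EKO_exo (213.7 CPM, against 187.7 CPM in PBS), and Foxp3 averaged 195.1 CPM in EKO_exo, 180.7 CPM in WT_exo and 179.6 CPM in PBS and was not called. Dendritic cell, neutrophil, NK cell and erythroid and platelet markers each summed to at most 12.9 CPM in any library, with Hba-a1 and Hbb-bs at 0 throughout.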

Additional observations from a re-analysis of the deposited data

Results flagged for a closer look

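Igkc, the immunoglobulin kappa constant gene and a B cell marker, stood out by a difference between the exosome groups, at a log2 fold change of 0.43 ± 0.061 for EKO_exo over WT_exo (edgeR adjusted p = 0.00219). It had 121.2, 126.6 and 133.4 CPM in EKO_exo, 92.8, 86.5 and 104.4 CPM in WT_exo, and 98.2, 111.1 and 104.6 CPM in PBS. Against PBS its log2 fold change was 0.28 ± 0.060 in EKO_exo and -0.15 ± 0.061 in WT_exo (adjusted p = 0.0046 and 0.214). The adjusted p between the exosome groups was 0.0538 without WT_exo replicate 1 and 0.06 without WT_exo replicate 2.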

How the results depend on the processing

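The count of members called was 6 for EKO_exo over PBS, 4 for WT_exo over PBS and 0 for EKO_exo over WT_exo. Leaving out each library gave 5 to 6, 4 to 4 and 0 to 0 members in that order of comparisons. DESeq2 gave 7, 4 and 0, its size factors in edgeR 6, 4 and 0, and fits of 2 groups 6, 4 and 0. With EKO_exo replicates 1 and 3 left out they were 4, 4 and 0. No filter on low counts gave 1 member, S1pr1, for EKO_exo over WT_exo. No member changed direction past the threshold under any alternative run.

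Over all genes, 746, 730 and 5 were called. Leaving out 1 library gave 375 to 687, 399 to 870 and 0 to 6. With EKO_exo replicates 1 and 3 left out, 249 were called for EKO_exo over PBS and 0 for EKO_exo over WT_exo, a fit with fewer samples. For EKO_exo over WT_exo no filter gave 28 and DESeq2 gave 37, and the cause was not tested. In EKO_exo over PBS the lowest counts came without PBS replicate 1 (399) and PBS replicate 2 (375). In WT_exo over PBS they came without PBS replicates 1 (410) and 2 (399) and WT_exo replicates 1 (441), 2 (430) and 3 (432).

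Same-numbered samples did not deviate together (correlations of -0.07 to 0.019), so the numbers were not taken as pairs. With a replicate block 6, 4 and 0 members and 614, 609 and 1 genes were called. The best match had the same number for 0 of 3 EKO_exo libraries against PBS, 1 of 3 WT_exo libraries against PBS and 1 of 3 EKO_exo libraries against WT_exo.

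The EKO_exo calls of the markers Cd3e, Cd247, Gpr83, Eomes and Csf1r were not followed through the fits that left out 1 library. Of 34 other named genes called for EKO_exo over PBS, 16 kept their call in every such fit. The remaining 18 lost it in at least 1, including Foxp1, Bach2, Myb, Ms4a4b, Ly6c1, Trib2, Tle3, Mcl1, Stat5a, Il2rg and Ighm. Of 27 for WT_exo over PBS, 15 kept it and 12 lost it, including Klf3, Sgpl1, Ms4a6b, Bcl2l11, Jak3 and Flna. Standard errors against PBS in EKO_exo were widest for S1pr1 (0.069) and Il7r (0.088), against 0.028 for Ccr7, and the share of depth in that was not tested.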
